A study of Mus musculus with 32 samples.

Results

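Forebrain (Fb) tissue of E9.5 double knockout (DKO) embryos with exencephaly, called DKO_Ex, was compared with wild type (WT) Fb by RNA-seq. The comparison used 9 of the 32 libraries of the series, the 3 headed DKO8-11 Fb and the 6 headed WT Fb. It covered 13178 of 48576 genes, those whose FPKM (fragments per kilobase of exon, scaled to the mapped fragments of the library) averaged 1 or more over these 9 libraries. DKO_Ex embryos carry null alleles of Cdh8 and Cdh11 on a B6C3F1 background, and WT embryos are of the same strain and stage with no targeted allele. The Cdh6 genotype of the DKO_Ex embryos is not given. The null alleles are germline deletions at the start codon, made by CRISPR/Cas9 in a line that also carries such an allele of Cdh6, so that every cell of the embryo carries them. DKO_Ex embryos were chosen for an open cranial neural tube. The mutants came from triple heterozygote intercrosses and the WT embryos from WT matings. Genotype, phenotype and litter therefore cannot be told apart in this comparison. The sources do not say whether a library held more than 1 embryo, and p-values measure the spread between these libraries. Groups follow the column headings, since 12 DKO files across the series are listed under the record of the opposite DKO group.

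Cadherins are calcium-dependent adhesion molecules that join cells through their extracellular domains and link to the actin cytoskeleton through catenins. Type I members such as Cdh1 and Cdh2 hold whole epithelia together, whereas type II members such as Cdh6, Cdh8 and Cdh11 are expressed in restricted domains of the neural plate and its surrounding mesenchyme. Cranial closure requires the neural folds to bend, rise on the expanding head mesenchyme and fuse beneath the surface ectoderm, and exencephaly is the form of the head in which the folds stay apart.

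The estimated depth was 2.24 to 3.01 M fragments in the 6 WT Fb libraries and 2.33 to 2.77 M in the 3 DKO_Ex Fb libraries (two-sided exact permutation test, p = 0.548, BH-adjusted over 4 tests, p = 0.548). The tissue was checked against its markers. Of 21 telencephalon and eye field genes 20 were tested, with Six3, a factor of the eye field and rostral Fb, at 34.9 to 48.9 FPKM in WT and 47.5, 54.4 and 42.7 FPKM in DKO_Ex. None of the 10 hindbrain genes reached the level for testing, with Hoxb1, Hoxd3, Hoxa3 and Egr2 listed at 0 in all 9 libraries. The SD of the log2(FPKM + 1) differences over all tested genes was 0.61 to 0.71 for the 15 pairs of WT libraries, 0.70 to 0.72 for the 3 pairs of DKO_Ex libraries and 0.66 to 0.76 for the 18 mixed pairs, so that these ranges overlapped.

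A library of the DKO_Ex group stood apart before any gene was tested. In DKO_Ex Fb replicate 2, the genes of chromosome 14 lay at a median of 1.46 times the WT median, over the 224 genes of that chromosome with a mean of at least 10 FPKM in the series. The other autosomes of that library lay between 0.947 and 1.01 times the WT median. Of these 224 genes, 91.1% were above the WT median, whereas 35.3% and 55.4% were in DKO_Ex Fb replicates 1 and 3. The midbrain (Mb) library with the same label, DKO_Ex Mb replicate 2, gave 1.48 for chromosome 14 and 0.968 to 1.04 for the other autosomes. In the other 30 libraries of the series, chromosome 14 lay between 0.920 and 1.05. The copy number of the chromosome was not tested. The step raises the group median of the 463 chromosome 14 genes tested to a log2 fold change of 0.15, whereas the median over all 13178 genes was -0.01. Values are therefore given below by replicate, and the counts that matter are also given without replicate 2.

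**Figure D1:**
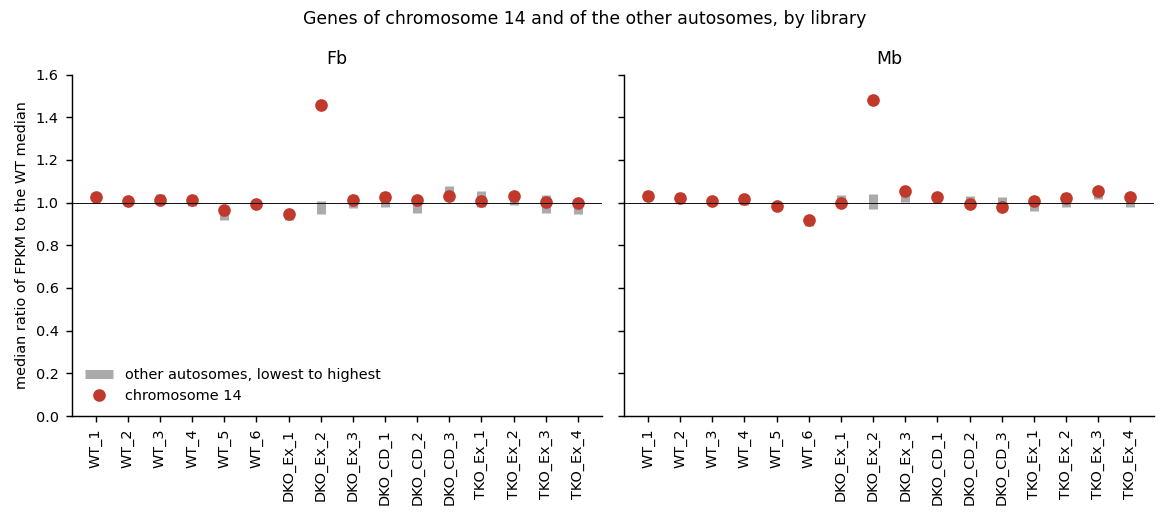
Median ratio of FPKM to the WT median of the same dissection (vertical axis, linear) for the genes of chromosome 14 (points), with the range over the other autosomes (grey bars), for each Fb library (left) and Mb library (right). The points of DKO_Ex replicate 2 sit at 1.46 in the Fb and 1.48 in the Mb, and the points of the other 30 libraries lie between 0.920 and 1.05.

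WT libraries differed among themselves as well. Xist, the RNA that coats the inactive X chromosome in female cells, was at 0.0537 to 0.126 FPKM in WT replicates 1 to 3 and at 77.2 to 86.2 FPKM in WT replicates 4 to 6. It was at 0.252 FPKM in DKO_Ex replicate 1 and at 118 and 98.9 FPKM in DKO_Ex replicates 2 and 3. Same-numbered Fb and Mb libraries fell on the same side of 2 FPKM in 16 of 16 cases, and on the same side of 1 FPKM in 15, with WT Mb replicate 2 at 1.04 FPKM. Genes other than those of the sex chromosomes followed the same division of WT. Hspa8, a constitutive heat shock chaperone, was at 121 to 132 FPKM in WT replicates 1 to 3 and at 252 to 281 FPKM in WT replicates 4 to 6. The results were hence computed again against each set of 3 WT libraries.

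The targeted genes were read first. Cdh8 (chr8:99024471-99416471, minus strand) had 0.423, 0.626 and 0.702 FPKM in DKO_Ex, while the 6 WT libraries ranged from 0.840 to 1.96 with a mean of 1.46 ± 0.439 FPKM (SD, n = 6). Thus all 3 DKO_Ex libraries lay below all WT libraries, on only 9 to 44 fragments per library. The difference passed a two-sided exact permutation test on this gene alone (p = 0.0238, the smallest that 3 against 6 allow, BH-adjusted over 4 tests p = 0.0476). It did not pass over all genes (log2 fold change -0.62, standard error 0.22, limma adjusted p = 0.610). Cdh11 (chr8:102632095-102785642, minus strand) had 17.9, 17.1 and 18.7 FPKM in DKO_Ex and 19.5 to 25.3 FPKM in WT, with a mean of 22.5 ± 2.12 FPKM (SD, n = 6). Its groups did not overlap either (exact permutation test, p = 0.0238, BH-adjusted p = 0.0476), and its log2 fold change was -0.31 (limma adjusted p = 0.535). The deletions lie within the exons that hold the start codons and need not remove the RNA, so these levels do not verify the genotypes. Cdh6 overlapped, with 3.62, 3.72 and 4.34 FPKM in DKO_Ex and 2.04 to 3.997 FPKM in WT (exact permutation test, p = 0.0952, BH-adjusted p = 0.127). For comparison, the midbrain levels of Cdh8 were 1.63, 2.49 and 1.67 FPKM in DKO_Ex and 1.14 to 10.1 FPKM in WT.

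Type I cadherins and catenins showed no gene past the threshold and none whose groups separated, in 10 tested of 10. Cdh2, the adhesion molecule of the whole neuroepithelium, was at 58.6, 64.5 and 62.9 FPKM in DKO_Ex and at 48.7 to 61.7 FPKM in WT. Cdh1, the surface ectoderm cadherin, was at 5.49, 12.2 and 5.48 FPKM in DKO_Ex and at 5.73 to 10.9 FPKM in WT, so that replicate 2 was above and the other DKO_Ex libraries below WT. Ctnnb1 (beta-catenin) was at 263, 290 and 297 FPKM against 277 to 312 FPKM in WT, and Ctnna1 (alpha-catenin) at 63.0, 69.1 and 74.6 FPKM against 69.9 to 78.3 FPKM. Among 6 type II cadherins tested of 13, 3 lay below WT in all DKO_Ex libraries, beside 2.25% of all genes. These were the targeted Cdh8 and Cdh11 and the endothelial Cdh5, which is described with its cell type.

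Across all genes, 10 of 13178 passed the threshold of an adjusted p under 0.05 (limma with Benjamini-Hochberg adjustment), which is 0.0759% of the genes tested. Of these, 3 rose and 7 fell. At an unadjusted p under 0.05, 368 genes were higher (2.79%) and 556 lower (4.22%). By position alone, all 3 DKO_Ex libraries lay above all 6 WT libraries in 192 genes (1.46%) and below them in 296 genes (2.25%), and such genes are called separated. Only 4 of the 10 genes code for protein, 5 are processed pseudogenes, which are intronless copies of expressed genes and made up 844 of the genes tested, and 1 is a lincRNA.

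The protein-coding gene with the clearest rise was Tecr (chr8:83571698-83607971, minus strand), the reductase of the last step of very-long-chain fatty acid elongation. It had 263, 288 and 284 FPKM in DKO_Ex against a WT range of 132 to 173 FPKM with a median of 159. The log2 fold change was 0.84 with a standard error of 0.088 (limma adjusted p = 0.00712). The other 9 tested elongation genes overlapped between the groups, and the median of the list was 0.05. N6amt1 (chr16:87354185-87368742, plus strand), a methyltransferase, rose from 4.71 to 5.68 FPKM in WT to 9.29, 9.82 and 10.03 FPKM in DKO_Ex (log2 fold change 0.80, limma adjusted p = 0.0376). All 3 values were above every WT value, as they were for Tecr. Without any 1 of the 9 libraries, however, the adjusted p of N6amt1 was above the threshold (0.0653 to 0.190).

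Pttg1 (chr11:43420250-43426251, minus strand) encodes securin, the inhibitor that restrains separase until the chromosomes are aligned. It fell to 28.6, 21.1 and 17.4 FPKM in DKO_Ex from a WT range of 57.4 to 94.8 FPKM with a median of 87.9. The log2 fold change was -1.86 with a standard error of 0.18 (limma adjusted p = 0.00566). S100a10 (chr3:93555080-93564643, plus strand), the light chain that binds annexin A2 beneath the plasma membrane, fell to 15.6, 24.1 and 13.1 FPKM from 46.0 to 70.2 FPKM in WT (log2 fold change -1.64, limma adjusted p = 0.0117). Neither gene overlapped between the groups. The adjusted p of S100a10 was 0.0667 without DKO_Ex replicate 1, 0.0578 without DKO_Ex replicate 3 and 0.0509 without WT replicate 5.

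The remaining 6 were non-coding or pseudogene entries, whose reads can be shared with a near-identical parent gene, so that their levels are uncertain. Rps3a3 rose, with 465, 781 and 457 FPKM in DKO_Ex against 217 to 257 FPKM in WT (log2 fold change 1.21, limma adjusted p = 0.02), and its adjusted p was 0.0508 to 0.0812 without any 1 of the WT libraries. The lincRNA Gm26825 fell to 0.196, 0.209 and 0 FPKM, with 8.88 to 22.1 FPKM in WT (log2 fold change -3.82, limma adjusted p = 0.000416), and it passed the threshold in all 22 alternative settings. Gm7993 fell to 0.311, 0.665 and 0.753 FPKM from 7.79 to 15.6 FPKM. Gm6472 fell to 4.74, 2.03 and 7.18 FPKM from 34.1 to 76.4 FPKM. Rpl3-ps1 fell to 7.40, 8.31 and 9.90 FPKM from 28.7 to 62.8 FPKM, and Gm13408 fell to 63.9, 49.0 and 62.5 FPKM from 91.3 to 101 FPKM. The adjusted p of Gm13408 was 0.0508 to 0.0812 when DKO_Ex replicate 3 or any 1 of WT replicates 2 to 6 was left out. In each of these, the 3 DKO_Ex libraries stood on the same side of all 6 WT libraries. Within WT, Rpl3-ps1 was 55.1 to 62.8 FPKM in the replicates without Xist and 28.7 to 36.2 FPKM in those with Xist.

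**Figure D2:**
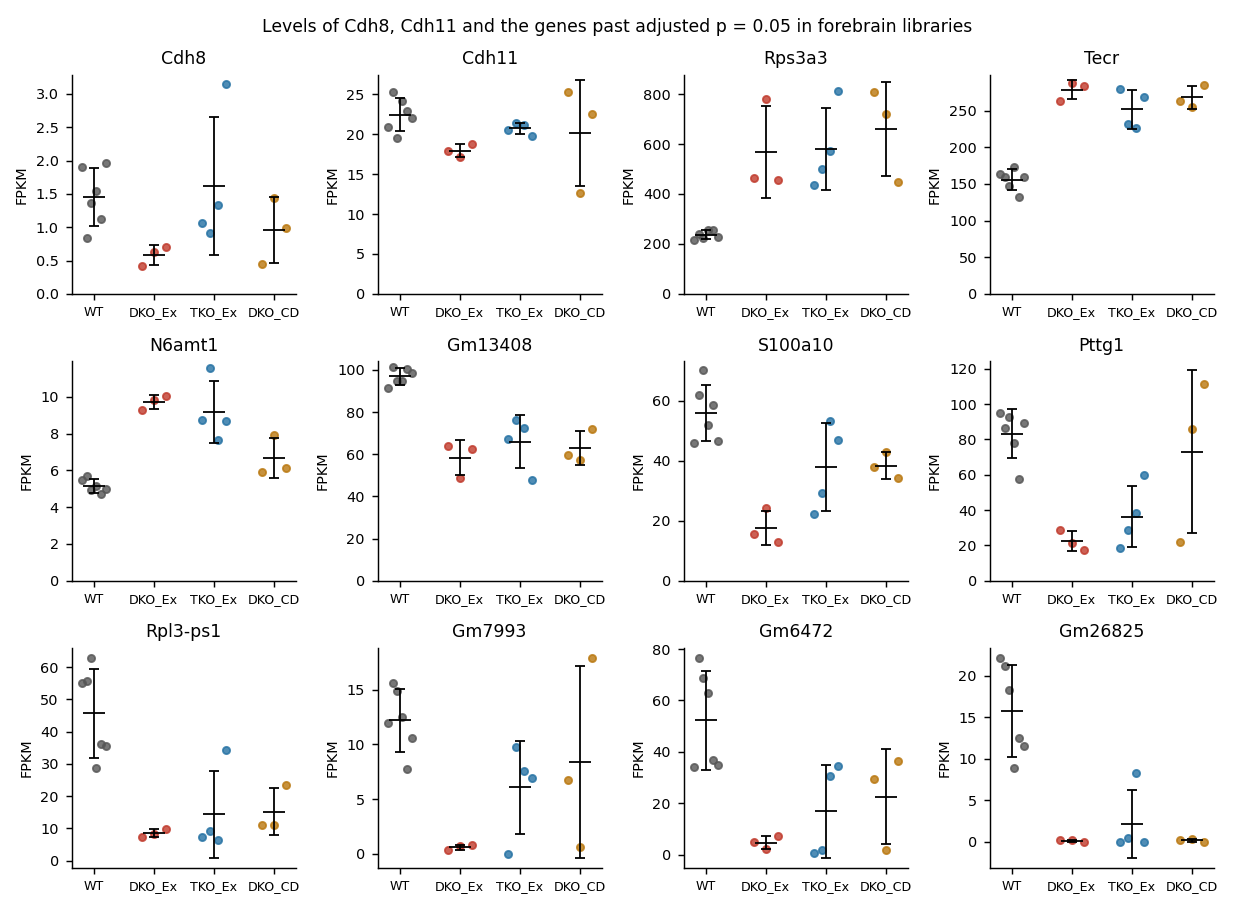
FPKM (vertical axes, linear) of Cdh8, Cdh11 and the 10 genes past an adjusted p of 0.05, with 1 point per Fb library of WT (n = 6), DKO_Ex (n = 3), TKO_Ex (n = 4) and DKO_CD (n = 3) and bars for mean ± SD. DKO_Ex and WT points do not overlap in any panel, while TKO_Ex or DKO_CD points spread over both levels for Pttg1, Gm7993 and Gm6472.

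The same genes were then read in the Mb and in the Fb of the other mutant groups, the triple knockout with exencephaly (TKO_Ex) and DKO embryos with a cranial defect (DKO_CD). The labels name Cdh6 and Cdh8 for DKO_CD and the paper Cdh8 and Cdh11. In the Mb, Tecr was at 279, 302 and 301 FPKM in DKO_Ex and 136 to 186 FPKM in WT, and Pttg1 at 30.1, 29.3 and 40.1 FPKM against 69.6 to 120.3 FPKM. Pttg1 in the other Fb groups spread from the DKO_Ex Fb level to above the WT Fb range. It was at 18.8, 28.8, 38.1 and 59.6 FPKM in TKO_Ex, and at 22.1, 85.7 and 112 FPKM in DKO_CD. Gm7993 was at 0, 9.78, 7.58 and 6.93 FPKM in TKO_Ex and at 6.70, 0.614 and 17.9 FPKM in DKO_CD. S100a10 was at 22.2 to 53.4 FPKM in TKO_Ex and at 34.1 to 43.0 FPKM in DKO_CD. Tecr was at 226 to 279.7 FPKM in TKO_Ex and at 255 to 285 FPKM in DKO_CD, so that all libraries of all 3 mutant groups lay above the WT Fb range. With the DKO files grouped by record instead of by heading, Tecr, Rps3a3 and Gm26825 passed the threshold and the other 7 genes did not. The log2 fold change was then -0.45 for Pttg1 (limma adjusted p = 0.789), -0.52 for S100a10 (0.411), 0.31 for N6amt1 (0.563), -1.07 for Gm7993 (0.662) and -1.77 for Gm6472 (0.555).

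Direct tests found few differences between DKO_Ex Fb and these groups. No gene passed the threshold for a DKO_Ex effect that differed between Mb and Fb (0 of 13349 in limma, 0.0%, and 518 at an unadjusted p under 0.05, 3.88%), and 1 gene did in a fit with same-numbered Fb and Mb libraries as a replicate block. On simulated data this test recovered 42% of the genes changed by a log2 fold change of 1 and 94% of those changed by 2. The simulated libraries held no chromosome 14 step and no division of WT, so these shares need not hold here. Between DKO_Ex Fb and TKO_Ex Fb, 4 of 13305 genes differed (0.0301%). Ece1, the endothelin-converting protease, was at 12.2, 16.0 and 11.5 FPKM in DKO_Ex and at 103 to 144 FPKM in TKO_Ex, a log2 difference of -3.19 (limma adjusted p = 0.000576). However, Ece1 also took both levels within WT Fb, with 103, 119 and 116 FPKM in replicates 1, 2 and 4 and 14.5, 10.8 and 16.6 FPKM in replicates 3, 5 and 6. The others were Fam107b (-2.49), the snoRNA Gm23547 (-4.36) and Rec8 (3.25), a meiotic cohesin subunit that had 6.91, 10.3 and 20.7 FPKM in DKO_Ex and 0.19 to 0.60 FPKM in TKO_Ex. Between DKO_Ex Fb and DKO_CD Fb, 1 of 13282 genes differed (0.00753%), the snoRNA Snora73a, which was listed at 0 in 2 DKO_CD libraries and below 0.001 FPKM in the third and at 34.5, 29.8 and 59.2 FPKM in DKO_Ex. WT libraries held Snora73a at 0 to 63.1 FPKM. These 5 genes were named after their values were seen.

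Cell-type content was read next, from lists of marker genes. Cranial mesenchyme markers were lower in DKO_Ex Fb. The mean log2(FPKM + 1) of the 18 tested markers was 3.49, 3.46 and 3.65 in DKO_Ex and 3.76 to 3.91 in WT, with a median of 3.87, and their summed level was 284, 284 and 302 FPKM against 347 to 378 FPKM. All 3 DKO_Ex libraries were thus below all WT libraries. Of 42 lists with a tested member, it was the 1 list whose mean log2 levels separated, and 0 separated upward. A permutation of 3 against 6 libraries separates 1 value with a chance of 0.0238, and 3.70% of single genes separated. The lists were chosen with earlier results known, and their separation was not tested. By summed FPKM, which the most abundant members set, the retinoic acid list also lay below WT (1037, 974.5 and 1073 against 1151 to 1310 FPKM) and the fatty acid elongation list, which holds Tecr, above it (466, 492 and 467 against 294.5 to 375 FPKM). The median log2 fold change of the list was -0.32, beside -0.01 over all genes, and 16 of the 18 markers had a negative fold change. None of the 18 passed the threshold over all genes, 8 had an unadjusted p under 0.05, all lower, and 3 lay below every WT library, beside the 2.25% of all genes. In bulk tissue, fewer cells of a type and less RNA per cell cannot be told apart.

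The 3 separated mesenchyme markers encode matrix proteins. Col1a2, the alpha-2 chain of type I collagen, had 15.7, 17.9 and 15.6 FPKM in DKO_Ex and 23.1 to 39.2 FPKM in WT (log2 fold change -0.72, standard error 0.16, limma adjusted p = 0.280). Lum, the collagen-binding proteoglycan lumican, had 8.75, 5.90 and 8.92 FPKM against 10.9 to 18.2 FPKM (log2 fold change -0.71, limma adjusted p = 0.353). Col3a1, type III collagen, had 35.4, 32.4 and 37.2 FPKM against 42.2 to 57.1 FPKM (log2 fold change -0.39, limma adjusted p = 0.388). Transcription factors of the head mesenchyme leaned the same way but overlapped with WT. Twist1 was at 58.2, 64.7 and 63.4 FPKM against 61.9 to 88.4 FPKM, and Prrx1 at 8.56, 11.5 and 13.1 FPKM against 12 to 23.4 FPKM. Foxd1 stood on the other side of 0 (log2 fold change 0.34), with 41.9, 40.9 and 42.4 FPKM against 15.4 to 45.5 FPKM. Dcn, Tbx15, Meox1 and Meox2 were below the level for testing.

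The lower mesenchyme level did not rest on a single library. Without DKO_Ex replicate 2, the list median was -0.29. Then 5 markers lay below every WT library, beside 4.64% of all genes, a count that leaving out a library cannot lower. Against WT replicates 1 to 3 it was -0.30 and against WT replicates 4 to 6 it was -0.37, with 16 of 18 markers negative in both. It ran from -0.42 to -0.23 over all 22 alternative settings. With the DKO files grouped by record it was -0.25, but this setting takes the libraries headed DKO_CD Fb as the mutant group. In these libraries the list means were 4.01, 3.11 and 3.98. Only replicate 2 was below the WT range of 3.76 to 3.91, and replicates 1 and 3 were above it, so that the value by record rested on replicate 2. In TKO_Ex Fb the means were 3.64, 3.81, 3.60 and 3.55. The direct difference between DKO_Ex and TKO_Ex Fb had a list median of -0.08, with 7 of 18 markers positive.

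In the Mb the level of the same list did not separate from WT. The list means were 3.21, 3.03 and 2.83 in DKO_Ex Mb and 2.54 to 3.25 in WT Mb, so that the groups overlapped. The Mb effect minus the Fb effect was positive for 17 of 18 markers, with a median of 0.56 on the log2 scale, beside 0.04 over all genes. This difference subtracts the Fb effect, which was negative for 16 of 18 markers. A positive sign therefore need not mean a rise in the Mb. For Col1a2 this difference was 0.80 (limma, unadjusted p = 0.006, adjusted p = 0.9996) and for Col3a1 0.72. None of the differences passed the threshold over all genes, and 7 of 18 had an unadjusted p under 0.05, beside 3.88% of all genes.

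Endothelial markers had a median log2 fold change of -0.21, with 18 of 22 negative, none past the threshold and 4 lower at an unadjusted p under 0.05, beside 4.22% of all genes. The 3 that lay below every WT library, beside 2.25% of all genes, were Ecscr, Erg and Cdh5. Ecscr, an endothelial surface protein, had 3.12, 2.86 and 4.35 FPKM against 5.33 to 6.90 FPKM (log2 fold change -0.64, limma adjusted p = 0.284). Erg, an endothelial ETS factor, had 2.41, 1.91 and 2.01 FPKM against 2.50 to 4.05 FPKM, and Cdh5 (VE-cadherin) had 9.16, 7.73 and 9.41 FPKM against 9.72 to 13.1 FPKM. In contrast, Pecam1 was at 5.56, 4.82 and 4.55 FPKM against 4.40 to 5.36 FPKM, and Kdr, the Vegf receptor, at 9.03, 5.47 and 6.89 FPKM against 6.78 to 9.48 FPKM. The list means were 2.72, 2.46 and 2.75 in DKO_Ex and 2.65 to 2.98 in WT. Replicate 2 was the lowest of all 9 libraries, and without it the list median was -0.09.

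Primitive red cell genes varied widely between libraries. Their summed level was 2819 to 24230 FPKM over the WT libraries and 16550, 4192 and 5488 FPKM in DKO_Ex. The embryonic globin Hbb-y was at 787 to 8400 FPKM in WT and at 5917, 1610 and 1744 FPKM in DKO_Ex. The list median was -0.50, with 16 of 17 genes negative and none separated. It was 0.04 against WT replicates 1 to 3 and -1.21 against WT replicates 4 to 6, so the direction depended on the WT libraries used. Macrophage genes were near 0. Only Cd68, Fcer1g and Laptm5 reached the level for testing of 12, Adgre1, Tyrobp and C1qc were listed at 0 in all 9 libraries, and the summed list was 2.62 to 12.2 FPKM in WT and 2.99, 5.61 and 3.37 FPKM in DKO_Ex.

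Regional genes of the Fb overlapped between the groups with 1 exception, Irx2. Of the 20 tested telencephalon and eye field genes, 16 had a positive fold change (median 0.15), none passed the threshold and none separated, while 2 had an unadjusted p under 0.05, Fezf1 and Six3. Fezf1, a repressor of caudal fate in the rostral Fb, was at 19.7, 24.5 and 23.7 FPKM against 13.4 to 20.5 FPKM, and the values of Six3 are given above. Otx2, which specifies the Fb and Mb, was at 64.9, 114 and 87.1 FPKM against 61.2 to 94.2 FPKM. It lies on chromosome 14, as do 3 of the 20 genes, and replicate 2 held its highest value. Lhx2 was at 80.5, 78.9 and 80.0 FPKM against 53.2 to 86.3 FPKM. Without replicate 2 the list median was 0.05. In the diencephalon list (12 tested, median 0.19, and 0.05 without DKO_Ex replicate 3, 0.09 without WT replicate 5 and 0.12 without WT replicate 3), Irx2 lay below WT at 2.52, 3.26 and 2.08 FPKM against 3.298 to 9.28 FPKM (log2 fold change -0.70, limma adjusted p = 0.649). Nkx2-2, a ventral factor downstream of Hedgehog signalling, was at 11.8, 11.8 and 2.93 FPKM against 0.805 to 6.32 FPKM, so that replicate 3 stood within WT. The 13 tested genes of the midbrain and isthmus list had a median of 0.04, and Fgf8 was at 22.4, 16.6 and 9.60 FPKM against 7.39 to 22.6 FPKM. This list median was -0.20 against WT replicates 1 to 3 and 0.11 against WT replicates 4 to 6.

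**Figure D3:**
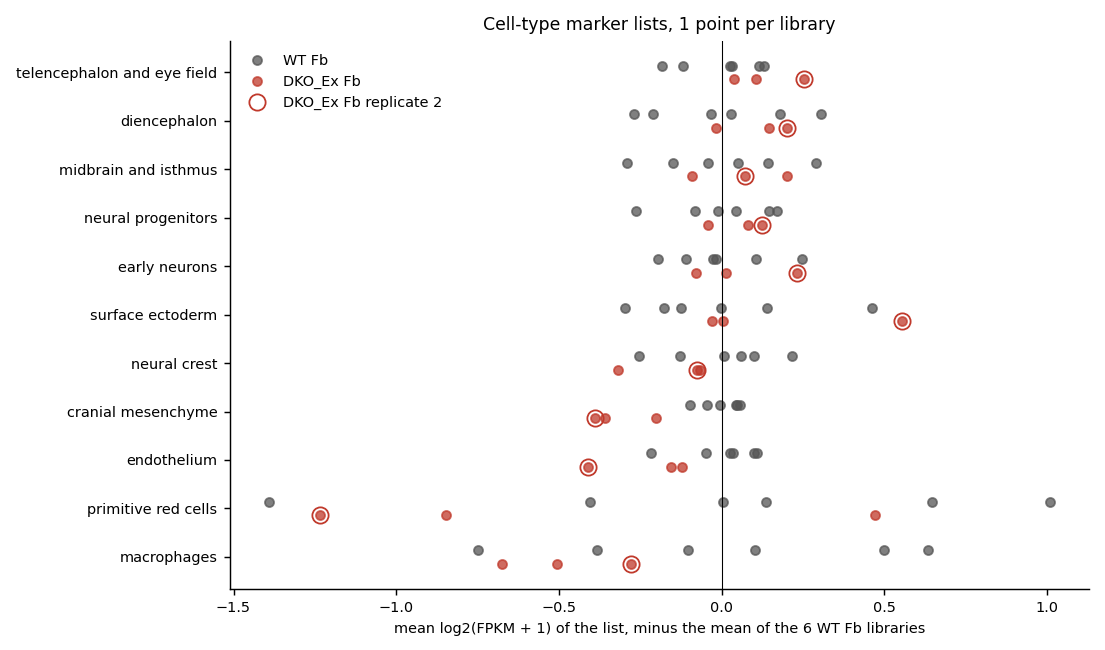
Mean log2(FPKM + 1) of each cell-type list (horizontal axis) relative to the mean of the 6 WT Fb libraries, with 1 point per library, grey for WT and red for DKO_Ex, and DKO_Ex replicate 2 ringed. The DKO_Ex points of the cranial mesenchyme list all sit left of the WT points, while the other lists overlap and the primitive red cell points spread from below -1 to 1.

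Neural progenitor genes had 2 members above every WT library among 18 tested, beside 1.46% of all genes (median 0.10, none past the threshold). The list median was -0.01 against the WT libraries without Xist, with 9 of 18 genes positive. Against the WT libraries with Xist it was 0.18, with 15 of 18 genes positive. Sox2, which keeps neural progenitors undifferentiated, was at 138, 143 and 128 FPKM against 97.6 to 123 FPKM (log2 fold change 0.31, standard error 0.088, limma adjusted p = 0.381). Prom1, an apical membrane protein of the neuroepithelium, was at 40.9, 38.6 and 35.9 FPKM against 21.4 to 34.2 FPKM (log2 fold change 0.46, limma adjusted p = 0.465). The 17 tested early neuron genes had a median of -0.03 and none separated. Among them, Gap43 was at 17.8, 17.1 and 22.6 FPKM against 16.0 to 28.6 FPKM, and Elavl2 at 7.02, 7.19 and 6.14 FPKM against 5.81 to 8.46 FPKM.

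Surface ectoderm genes depended on replicate 2 and on which WT libraries were used. The list means were 3.08, 3.66 and 3.11 in DKO_Ex and 2.81 to 3.56 in WT, and the median log2 fold change fell from 0.17 to 0.07 without replicate 2. The list median was 0.04 against the WT libraries without Xist, with 12 of 21 genes positive. Against the WT libraries with Xist the list median was 0.37, with 18 of 21 genes positive. Krt18, a simple epithelial keratin, lay above WT in all 3 DKO_Ex libraries with 44.7, 70.1 and 32.3 FPKM against 18.7 to 32.2 FPKM (log2 fold change 0.87, limma adjusted p = 0.368). Replicate 3 exceeded the highest WT library by less than 0.1 FPKM. Its partner Krt8 overlapped, with 30.1, 42.4 and 23.2 FPKM against 15.5 to 33.3 FPKM. Grhl3, a driver of surface ectoderm fusion at closure, was at 1.902, 2.76 and 1.14 FPKM against 0.686 to 2.50 FPKM. The 10 tested neural crest genes had a median of -0.12 and none separated. Of these, Snai1 was at 10.2, 21.6 and 19.4 FPKM against 18.3 to 24.9 FPKM, and Sox9 at 17.5, 17.1 and 16.7 FPKM against 13.7 to 19.9 FPKM.

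**Figure D4:**
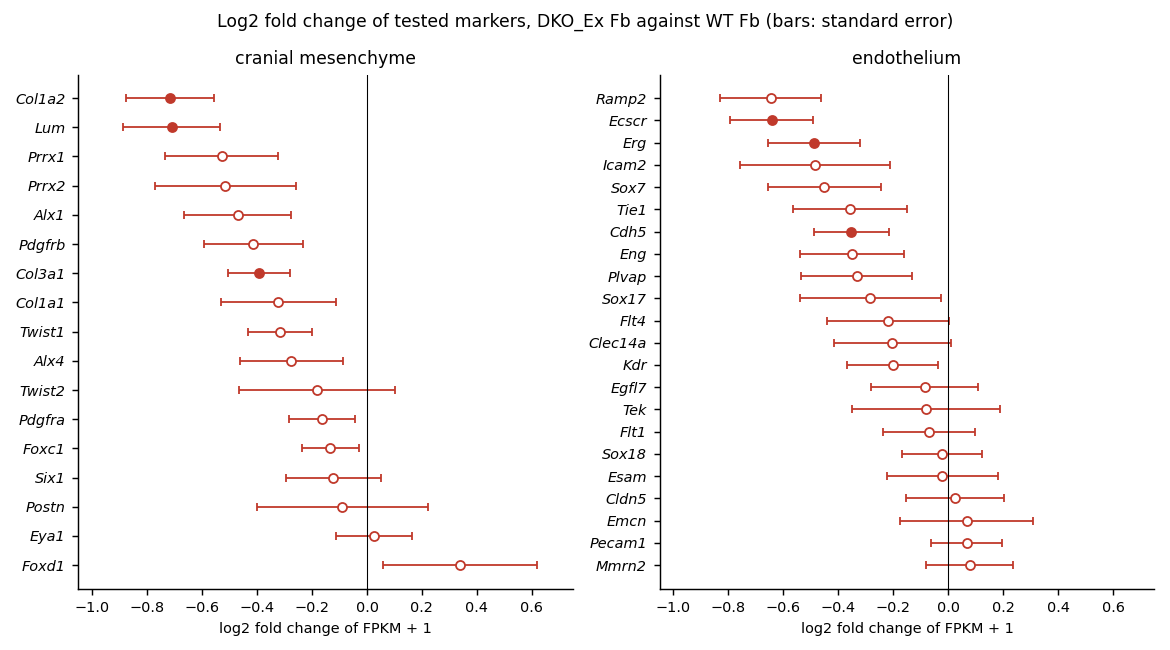
Log2 fold change of FPKM + 1 (horizontal axis) in DKO_Ex Fb against WT Fb for 17 of the 18 tested cranial mesenchyme markers and the 22 tested endothelial markers, with standard errors as bars. Filled points are markers whose 3 DKO_Ex libraries lay below all 6 WT libraries, 3 in each list, and 15 of the mesenchyme and 18 of the endothelial markers shown lie left of 0.

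Machinery of neural fold bending was read through polarity, actomyosin and closure lists. Of 29 tested apical constriction and actomyosin genes (median -0.05, none past the threshold), 3 separated, beside 3.70% of all genes. Tpm4, a short cytoskeletal tropomyosin, was at 218, 233 and 204 FPKM against 139 to 173 FPKM (log2 fold change 0.46, standard error 0.085, limma adjusted p = 0.137). Tpm1, a tropomyosin of stress fibres, was at 109, 138 and 124 FPKM against 149 to 189 FPKM (log2 fold change -0.40, limma adjusted p = 0.368). Flna, the actin crosslinker filamin A, was at 138, 138 and 134 FPKM against 151 to 186 FPKM (log2 fold change -0.30, limma adjusted p = 0.377). In 18 tested planar cell polarity genes (median -0.08), Celsr1 alone separated, with 3.03, 2.995 and 3.04 FPKM just under a WT range of 3.15 to 4.50 FPKM. The 19 tested nectin and apical polarity genes had a median of -0.04, none passed the threshold and 1 lay below every WT library, beside 2.25% of all genes. None of the 16 tested Zic and closure transcription factors separated (median 0.06). Cited2 was at 49.2, 35.5 and 35.3 FPKM against 41.2 to 71.1 FPKM.

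Morphogen pathways held no gene past the threshold. The Fgf ligands had 7 of 8 tested members positive and a median of 0.30, but none passed the threshold and none separated. The median was 0.55 without DKO_Ex replicate 3 and between 0.22 and 0.39 without any other library. Fgf15 was at 22.4, 28.0 and 17.3 FPKM in DKO_Ex and at 11.5 to 21.7 FPKM in WT (log2 fold change 0.42, limma adjusted p = 0.728). Their feedback and target genes had a median of 0.05 over 14 tested, with Dusp6, the Erk phosphatase induced by Fgf, at 25.1, 29.96 and 35.9 FPKM against 25.7 to 42.7 FPKM. Shisa2, also a member, was at 34.1, 70.8 and 38.0 FPKM against 33.0 to 45.2 FPKM, and it lies on chromosome 14. Among 11 tested Wnt targets (median 0.04), Ccnd1, the cyclin of G1 progression, lay above WT at 107, 112 and 102 FPKM against 76.2 to 98.1 FPKM (log2 fold change 0.33, limma adjusted p = 0.377). Of the 14 tested Hedgehog genes, 7 were positive and 7 negative, with the receptor component Smo at 73.8, 72.7 and 81.7 FPKM against 65.4 to 84 FPKM. The 14 tested Bmp genes had a median of 0.01, with the target Id1 at 49.4, 83.0 and 86.2 FPKM against 66.7 to 106 FPKM. The 16 tested Notch genes had a median of -0.04, with Hes1 at 55.4, 59.6 and 52.99 FPKM against 49.0 to 54.1 FPKM. Among 12 tested Yap targets (median -0.02), Ccn2, a matricellular protein, lay below WT at 7.39, 6.18 and 7.35 FPKM against 8.58 to 15.9 FPKM (log2 fold change -0.72, limma adjusted p = 0.284).

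Retinoic acid genes held the largest share of separated members among these signalling lists, 4 of 11 tested beside 3.70% of all genes, with none past the threshold. The binding protein Crabp1 was at 552, 464 and 574 FPKM against 595 to 745 FPKM (log2 fold change -0.38, standard error 0.091, limma adjusted p = 0.284). Crabp2, which carries retinoic acid to its nuclear receptors, was at 387, 372 and 380 FPKM against 406 to 453 FPKM (log2 fold change -0.21). The receptor Rarg was at 13.9, 13.3 and 14.2 FPKM against 15.5 to 19.97 FPKM (log2 fold change -0.32). Rdh10, the retinol dehydrogenase that starts synthesis, stood the other way, at 4.84, 4.83 and 5.88 FPKM against 2.69 to 4.38 FPKM (log2 fold change 0.42). Without DKO_Ex replicate 2, 3 lay below and 1 above, beside 4.64% and 3.42% of all genes. Leaving out a library can only keep or add separated genes, so these counts cannot show what replicate 2 contributed. The list median of -0.10 was -0.22 against WT replicates 1 to 3 and 0.02 against WT replicates 4 to 6.

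**Figure D5:**
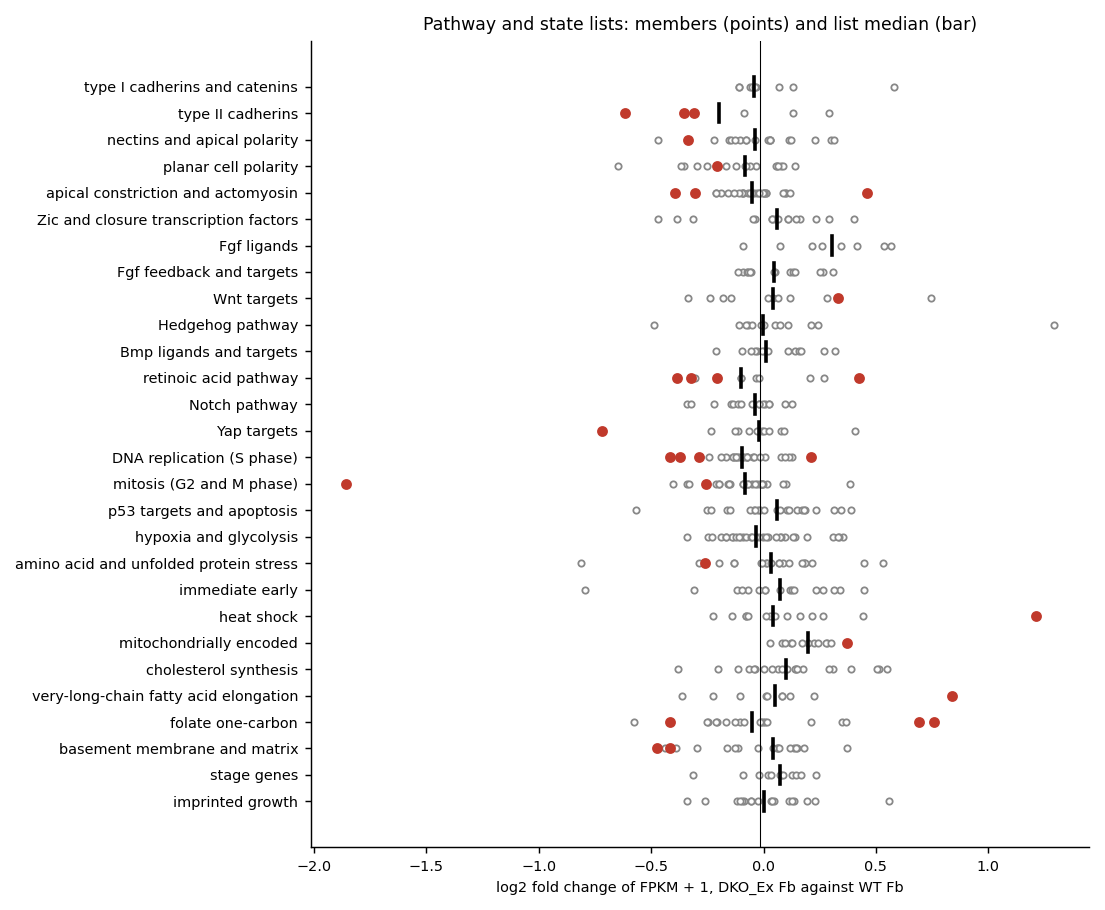
Log2 fold change of FPKM + 1 (horizontal axis) of the tested members of each pathway or state list, as points, with the list median as a black bar and the median of all 13178 genes as the vertical line. Red points are members whose DKO_Ex and WT libraries do not overlap, and the furthest of them are Pttg1 at -1.86 and Hspa8 at 1.21.

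Cell cycle lists leaned below 0, beside a median of -0.01 and 2.25% of genes below every WT library over all genes. Of 27 tested DNA replication genes, 21 were negative (median -0.10) and 3 lay below every WT library. Of 30 tested mitosis genes, 26 were negative (median -0.08) with Pttg1 past the threshold. The lean was weaker against WT replicates 4 to 6, with 17 of 27 (median -0.05) and 19 of 30 (median -0.07) negative. Against WT replicates 1 to 3, 22 of 27 (median -0.12) and 27 of 30 (median -0.10) were negative. The medians over all genes were then 0.02 and -0.05. Tyms, the thymidylate synthase, was at 54.0, 62.7 and 63.3 FPKM against 67.0 to 90.1 FPKM (log2 fold change -0.42, limma adjusted p = 0.364). Cdc45, a subunit of the replicative helicase, was at 16.2, 17.2 and 18.5 FPKM against 20.2 to 25.2 FPKM, and Rfc4, of the clamp loader, at 49.1, 49.1 and 43.6 FPKM against 55.5 to 60.6 FPKM. Rrm2, of ribonucleotide reductase, lay above WT at 203, 204 and 236 FPKM against 174 to 197 FPKM. Plk1, a mitotic kinase, lay below WT at 73.7, 70.9 and 75.01 FPKM against 75.2 to 101 FPKM.

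Some members of the metabolic and stress lists separated, beside 1.46% of all genes above and 2.25% below every WT library. In the folate one-carbon list (20 tested, median -0.05), 2 lay above and 1 below. The mitochondrial enzyme Mthfd2l was at 24.1, 22.8 and 22.0 FPKM against 10.95 to 18.6 FPKM (log2 fold change 0.69, limma adjusted p = 0.241). Gcsh, the carrier protein of glycine cleavage, was at 84.4, 75.7 and 82.8 FPKM against 35.6 to 59.6 FPKM (log2 fold change 0.76, limma adjusted p = 0.166). Of 19 tested basement membrane genes (median 0.04), 2 lay below every WT library. Nid1 was at 11.1, 7.87 and 10.7 FPKM against 11.2 to 15.7 FPKM and Col4a2 at 24.3, 17.99 and 24.4 FPKM against 25.0 to 37.9 FPKM. In the amino acid and unfolded protein stress list (21 tested, median 0.03), Phgdh, of serine synthesis, was at 68.0, 77.7 and 75.01 FPKM against 80.6 to 98.4 FPKM. No tested member separated in the p53 and apoptosis (23 tested, median 0.06), hypoxia and glycolysis (31 tested, median -0.03), immediate early (17 tested, median 0.08), stage (12 tested, median 0.08) or imprinted growth (18 tested, median 0.00) lists. The 13 mitochondrially encoded genes were all positive (median 0.20), with mt-Nd3 at 4258, 4216 and 4799 FPKM against 2285 to 4139 FPKM. Their median was 0.30 without DKO_Ex replicate 2 and 0.11 without DKO_Ex replicate 3. Without replicate 2, 5 of 13 lay above every WT library in place of 1, beside 3.42% of all genes in place of 1.46%. The 77 tested nuclear respiratory chain genes had 22 positive and a median of -0.07. Of these, 10 were lower and 0 higher at an unadjusted p under 0.05, beside 4.22% and 2.79% of all genes. Below every WT library lay 6, beside 2.25% of all genes. Without DKO_Ex replicate 2, 4 of the 77 were lower at that p, beside 503 of 13170 genes. Against WT replicates 4 to 6, 5 were lower, beside 440 of 13151 genes, and against WT replicates 1 to 3, 10, beside 654 of 13212 genes.

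Hspa8 and the cholesterol genes depended on which WT libraries were used. Hspa8 was at 341, 564 and 405 FPKM in DKO_Ex, above all WT libraries (121 to 281 FPKM, log2 fold change 1.21, limma adjusted p = 0.368). It was the 1 gene of the 14 tested heat shock genes (median 0.04) that separated, and against the WT libraries without Xist it passed the threshold (log2 fold change 1.76, limma adjusted p = 0.0419). Cholesterol synthesis genes (22 tested, median 0.10, none separated) had list means of 4.89 to 5.08 in WT replicates 1 to 3 and 4.05 to 4.43 in WT replicates 4 to 6, and of 5.10, 4.59 and 4.52 in DKO_Ex. Their median log2 fold change was -0.26 against WT replicates 1 to 3 and 0.53 against WT replicates 4 to 6. Hmgcs1, which starts the pathway, was at 140, 91.7 and 78.4 FPKM in DKO_Ex and at 47.3 to 122 FPKM in WT.

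Separated genes were more frequent on the chromosomes of the targeted loci than elsewhere. On chromosome 8, which carries Cdh8 and Cdh11, DKO_Ex and WT did not overlap in 43 of 643 tested genes (6.69%, 25 above and 18 below), and on chromosome 15, which carries Cdh6, in 34 of 482 (7.05%, 16 above and 18 below). The share was 3.70% over all genes and 2.03% to 4.22% on each of the other autosomes and the X chromosome, and the difference in share was not tested. Within 20 Mb of Cdh8 or Cdh11, 18 of 281 genes separated (6.41%), 12 above and 6 below, and within 20 Mb of Cdh6 2 of 57 (3.51%). The largest differences inside the chromosome 8 window were D8Ertd738e, Tecr and Gcsh. D8Ertd738e (chr8:84246238-84249719) was at 264, 251 and 268 FPKM against 114 to 181 FPKM (log2 fold change 0.85, limma adjusted p = 0.0556). Gcsh (chr8:116981810-116993537) is given above with the folate genes. The strain origin of the alleles around the targeted loci was not tested.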

How the data were processed

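Tissue from the forebrain (Fb) and midbrain (Mb) of E9.5 mouse embryos was sequenced in 32 directional libraries. Per the labels and the study's methods, the authors used TopHat2 for alignment to GRCm38 (mm10), and the deposited values are gene FPKM computed by Cufflinks, already scaled to gene length and mapped fragments. Versions are not given in the sources used here. Their HTSeq counts and DESeq2 test were not used here. Symbols and coordinates came from GENCODE M21, which held 48218 of 48576 identifiers, after 65 repeated identifiers were summed.

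Each comparison kept the genes averaging 1 FPKM or more over its libraries. Values were taken as log2(FPKM + 1) with no further scaling and passed to limma (version 3.58.1, R 4.3.3), with the trend option of eBayes and an adjusted p of 0.05 as threshold. Fold changes on this scale understate low genes, and a listed 0 can be a failed estimate. Single values were tested with two-sided exact permutation tests in SciPy 1.17.1. Depth was estimated from the steps of low values in 771 single-transcript genes. On simulated data of the main comparison, 200 genes were changed among 13222. Of those changed by a log2 fold change of 1, 77% were recovered, and of those changed by 2, 99%. Another 13 genes were called without a planted change. All genes were drawn with the same fixed relative spread, without a chromosome 14 step or a division of WT. These shares need not hold for the measured libraries.

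The members and the 40 gene lists were chosen with earlier results of these data known, and the ribosomal protein, nuclear respiratory chain and processed pseudogene lists were added after the values were seen. Lists are described by counts and medians, and some genes are in more than 1 list. The genes named were the 5 cadherins, every gene past the threshold, up to 5 separated members per list by size of fold change, or else the 2 with the highest level, and up to 3 near the targeted loci; other genes named were chosen after their values were seen. Some genes that the rule takes in are not reported here.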

Additional observations from a re-analysis of the deposited data

Results flagged for a closer look

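Among 129 sets of 6 WT Fb values (the named genes, the list means and the depth), 2 held a WT library whose distance from the nearest other library exceeded the 95% limit for 6 samples. Chance alone gives about 1 such set in 20. Fcer1g, a myeloid signalling chain, was at 6.23 FPKM in WT replicate 4, with the next value at 1.95 FPKM. Gas1, a Hedgehog co-receptor, was at 72.7 FPKM in WT replicate 3, with the next value at 58.7 FPKM.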

How the results depend on the processing

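Of the 10 genes changed in DKO_Ex Fb, the count was 8 to 11 with no filter, pseudocounts of 0.1 or 5, median-of-ratios or quantile scaling, no mean-variance trend, all Fb groups in 1 fit (9, with 6 higher and 3 lower, of which 4 are among the 10) or Xist as a covariate. It was 5 with the DKO files grouped by record, of which 3 are among the 10, and 6 to 14 with a library left out, 6 without WT replicate 5 and 14 without DKO_Ex replicate 2, where 9 of the 10 remained. Chosen after seeing the data, the WT libraries without Xist gave 7, those with Xist 4 and the libraries with Xist alone 4. With the replicate block 2 genes passed, Gm26825 and Rpl3-ps1. Same-numbered DKO_Ex and WT libraries did not deviate together (correlations -0.03, 0.02 and 0.02), so the numbers pair nothing there. The Mb and Fb difference gave 1 gene by record, 1 with the replicate block over same-numbered Fb and Mb libraries (correlations 0.02 to 0.13) and 0 to 1 with a library left out. DKO_Ex against TKO_Ex gave 0 by record, 0 with the replicate block, 1 each with no filter, no trend or a pseudocount of 5, and 1 to 3 with a library left out. DKO_Ex against DKO_CD gave 3 with no trend, 0 with the replicate block and 1 to 4 with a library left out, and by record Snora73a turned over with the group names. No named gene that passed a threshold changed direction in any of the 22 settings, while the 10 called genes lost their call in 73 of 220 alternative values. The causes were not tested. Depth limits genes such as Cdh8, which rest on 9 to 44 fragments a library.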

Other observations

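Ribosomal proteins and pseudogenes were read as further groups. Of 82 tested cytosolic ribosomal protein genes, 19 had a positive log2 fold change in DKO_Ex Fb against WT Fb, with a median of -0.06. In limma 0 passed the threshold, with 1 higher and 6 lower at an unadjusted p under 0.05, beside 2.79% and 4.22% of all genes. Against TKO_Ex Fb, 73 of the 82 were positive with a median of 0.21, beside -0.04 over all genes of that comparison. In limma 0 passed the threshold, with 8 higher and 1 lower at an unadjusted p under 0.05. Over all 13305 genes of that comparison, 223 were higher and 451 lower. The mean log2(FPKM + 1) of the list was 9.36 in TKO_Ex Fb replicate 1 and 9.79 to 9.94 in its replicates 2 to 4, beside 9.92, 10.02 and 9.94 in DKO_Ex Fb, so that replicate 1 stood apart. Of 844 tested processed pseudogenes, 44 lay below every WT library and 6 above, beside 2.25% and 1.46% of all genes, 5 passed the threshold, beside 0.0759%, and the median was -0.09. Reads of pseudogenes can be shared with their parent genes.

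Rec8 lies on chromosome 14 and was at 6.91, 10.3 and 20.7 FPKM in DKO_Ex Fb, and at 0 to 3.34 FPKM in WT Fb (log2 fold change 3.18, limma adjusted p = 0.0661). Its highest value was in replicate 3, not in the replicate with the raised chromosome.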
